A study of Saccharomyces cerevisiae with 48 samples.

Results

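The 41 genes described here are budding yeast genes of the general stress response, of the kind that the transcription factors Msn2 and Msn4 switch on. The list is of names, with no threshold on the values of these libraries, though it was chosen with earlier results of these data known. All 41 were found among the 6713 genes of the deposited table. The study grew 3 wild Saccharomyces cerevisiae strains, each in 4 media, with and without oxygen, and sequenced RNA from 2 cultures of each kind (48 libraries in 24 groups). The strains were WA (NCYC3290, a West African isolate from bili wine), PAP (Y7568, a mosaic strain from papaya) and IL01 (a mosaic strain from Illinois soil). The media were the rich glucose medium YPD with 0.8% 1-butanol, 1% isobutanol or ethanol, and YPD with no alcohol. Ethanol was added at 3% to anaerobic cultures and at 4% to aerobic ones, since WA grew poorly at the higher dose without oxygen. All cultures were started at an optical density of 0.01 and collected in exponential growth near 0.5, so they show cells growing in the alcohol, not the first minutes after its addition. By role they were HSP12 (YFL014W), GRE1 (YPL223C), SIP18 (YMR175W), YRO2 (YBR054W), HSP30 (YCR021C) and HSP31 (YDR533C) for membrane and protein protection, CTT1 (YGR088W), GPX1 (YKL026C), PRX1 (YBL064C), GRE3 (YHR104W) and GCY1 (YOR120W) for redox, and SOL4 (YGR248W), GND2 (YGR256W), TKL2 (YBR117C) and NQM1 (YGR043C) of the pentose phosphate pathway. PBI2 (YNL015W), APE1 (YKL103C), PRB1 (YEL060C), PEP4 (YPL154C) and TFS1 (YLR178C) belong to vacuolar proteolysis, GAD1 (YMR250W), UGA1 (YGR019W) and UGA2 (YBR006W) to the GABA shunt, SPI1 (YER150W) and YGP1 (YNL160W) to the cell wall, and TMA10 (YLR327C), OM45 (YIL136W), FMP16 (YDR070C), RGI1 (YER067W) and RGI2 (YIL057C) to mitochondria, ribosome and energy. XBP1 (YIL101C), USV1 (YPL230W), DCS2 (YOR173W) and PNC1 (YGL037C) were grouped as regulators, and DDR2 (YOL052C-A), DDR48 (YMR173W), HOR7 (YMR251W-A), MSC1 (YML128C), RTN2 (YDL204W), MOH1 (YBL049W) and PHM7 (YOL084W) as stress proteins of other or unknown role. The alcohols were dosed differently, so their effects are set side by side below and not compared.

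Msn2 and Msn4 are zinc finger activators that shuttle between cytoplasm and nucleus. In well-fed cells the protein kinase A and TOR pathways hold them in the cytoplasm, and when these pathways quieten, under starvation, heat, osmotic or oxidative stress, they enter the nucleus and bind the stress response element (STRE), the pentamer AGGGG, in promoters. Their targets protect membranes and proteins, remove peroxides, run second copies of pentose phosphate enzymes, break down proteins in the vacuole, and supply energy, and many of them are also high in slowly growing or resting cells. In glucose medium the same genes are mostly quiet.

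The promoters of the 41 genes were read from the S288c genome (RefSeq, build R64) as the 300 bases from 400 to 101 upstream of the start codon, leaving out the 100 bases nearest the start, which hold most of the 5′ leader. The STRE, the only motif searched, was looked for on both strands (AGGGG, or its reverse complement CCCCT). It was found at least once in 33 of the 41 (80.5%), against 1408 of 5982 genes with such a window (23.5%), and at least 2 times in 18 (43.9%), against 246 of all genes (4.11%). In the 600 bases next to the start codon the numbers were 36 (87.8%), against 2375 of all genes (39.7%), and 21 (51.2%), against 642 (10.7%). PNC1, which makes nicotinic acid from nicotinamide, had 4, and HSP12, CTT1, DDR2, SPI1, USV1 and RGI1 had 3 each. GRE1, TKL2, YRO2, UGA1, UGA2, HSP30 and YGP1 were among those with none in the shorter window, and TKL2, YRO2 and YGP1 have 1 each in the longer. Since the genes were listed as of the Msn2/Msn4 type, a high share of STREs follows in part from that choice. It is no separate finding about the set. A match is a string of letters in the reference strain, not a shown binding site, and the strains' own promoters were not read. The 5 windows below belong to genes on which the results turn, with each STRE in capitals, read 5′ to 3′ towards the gene. DDR2 and HOR7 are related small stress proteins that moved in opposite directions in some comparisons, TMA10 and PBI2 were among the most changed genes, and RGI1 has 3 copies of the motif.
DDR2 (chrXV:231856-232155, minus strand): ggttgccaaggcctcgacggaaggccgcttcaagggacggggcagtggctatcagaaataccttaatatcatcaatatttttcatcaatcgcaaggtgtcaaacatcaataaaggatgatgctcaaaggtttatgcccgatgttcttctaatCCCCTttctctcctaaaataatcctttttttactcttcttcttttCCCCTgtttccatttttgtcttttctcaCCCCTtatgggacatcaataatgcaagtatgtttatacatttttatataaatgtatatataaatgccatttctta
HOR7 (chrXIII:774352-774651, plus strand): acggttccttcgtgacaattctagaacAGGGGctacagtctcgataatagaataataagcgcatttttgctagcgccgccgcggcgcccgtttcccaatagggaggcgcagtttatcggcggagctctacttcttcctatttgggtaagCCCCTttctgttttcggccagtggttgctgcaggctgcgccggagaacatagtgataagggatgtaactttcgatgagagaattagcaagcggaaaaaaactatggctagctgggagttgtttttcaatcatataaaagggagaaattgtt
TMA10 (chrXII:783488-783787, minus strand): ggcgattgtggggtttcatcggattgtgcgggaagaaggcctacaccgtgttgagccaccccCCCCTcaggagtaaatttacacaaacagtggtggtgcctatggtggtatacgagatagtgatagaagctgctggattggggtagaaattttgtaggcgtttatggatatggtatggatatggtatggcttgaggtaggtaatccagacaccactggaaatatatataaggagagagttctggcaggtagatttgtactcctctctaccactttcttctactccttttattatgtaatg
PBI2 (chrXIV:604984-605283, plus strand): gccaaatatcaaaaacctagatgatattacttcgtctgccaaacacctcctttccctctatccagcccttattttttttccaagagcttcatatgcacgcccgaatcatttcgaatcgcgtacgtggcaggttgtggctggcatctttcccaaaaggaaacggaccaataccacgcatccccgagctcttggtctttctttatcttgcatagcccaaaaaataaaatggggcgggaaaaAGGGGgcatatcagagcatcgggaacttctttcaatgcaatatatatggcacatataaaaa
RGI1 (chrV:291666-291965, plus strand): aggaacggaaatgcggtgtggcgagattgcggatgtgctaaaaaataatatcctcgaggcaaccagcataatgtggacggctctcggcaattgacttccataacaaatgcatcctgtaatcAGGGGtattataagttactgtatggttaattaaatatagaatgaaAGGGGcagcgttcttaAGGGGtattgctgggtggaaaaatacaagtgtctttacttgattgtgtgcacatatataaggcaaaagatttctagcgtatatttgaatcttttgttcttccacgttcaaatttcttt

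Levels are given as RPKM, reads counted per gene scaled for gene length and library depth, so genes can be compared with each other. The libraries held 7480286 to 13938540 reads as recovered from the table, and a level of 0 means that no read was counted. The oxygen labels matched their marker genes: the hypoxic genes DAN1, TIR1, ANB1 and AAC3 were higher without oxygen in each medium (4 of 4), and CYC1, COX5A and PET9 were lower (3 of 3). Changes below are log2 differences of RPKM + 0.5 from limma, with standard errors, and a gene was called at a Benjamini-Hochberg adjusted p under 0.01 over all genes with a mean of at least 1 RPKM. The 2 cultures of a group were grown on different days. In bulk RNA a larger share of cells with a transcript and more transcript in every cell cannot be told apart.

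Replicates mostly resembled each other in these genes, and 2 groups stood apart. In 22 of the 24 groups the median log2 difference of the 41 genes, replicate 1 minus replicate 2, lay between -0.35 and 0.25. In IL01 with isobutanol without oxygen it was 1.45, against -0.16 over all genes. All 41 genes were higher in replicate 1 there, and 28 were more than 2-fold higher, against 7.03% of all genes. HSP12, a small membrane-protecting heat shock protein, had 167 RPKM in replicate 1 and 3.92 RPKM in replicate 2, and YGP1, a secreted cell wall glycoprotein, had 1228 and 225 RPKM. IL01 with 1-butanol without oxygen differed in the same direction, with a median of 0.88, against -0.30 over all genes. There 40 of the 41 genes were higher in replicate 1 and 16 more than 2-fold higher, against 3.42% of all genes. Counts of called genes without these libraries are given below with the anaerobic butanol comparisons and with those by oxygen in the butanols, and the levels of single genes include them. A further 2 libraries had fewer of their reads in the genes whose counts came out whole. The share was 49.9% in PAP YPD anaerobic replicate 2 and 55.3% in WA 1-butanol anaerobic replicate 1, with a median of 68.6% over libraries. Each was left out in turn like the other libraries, and several counts without them are given below. The effect of the share itself was not tested.

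**Figure D1:**
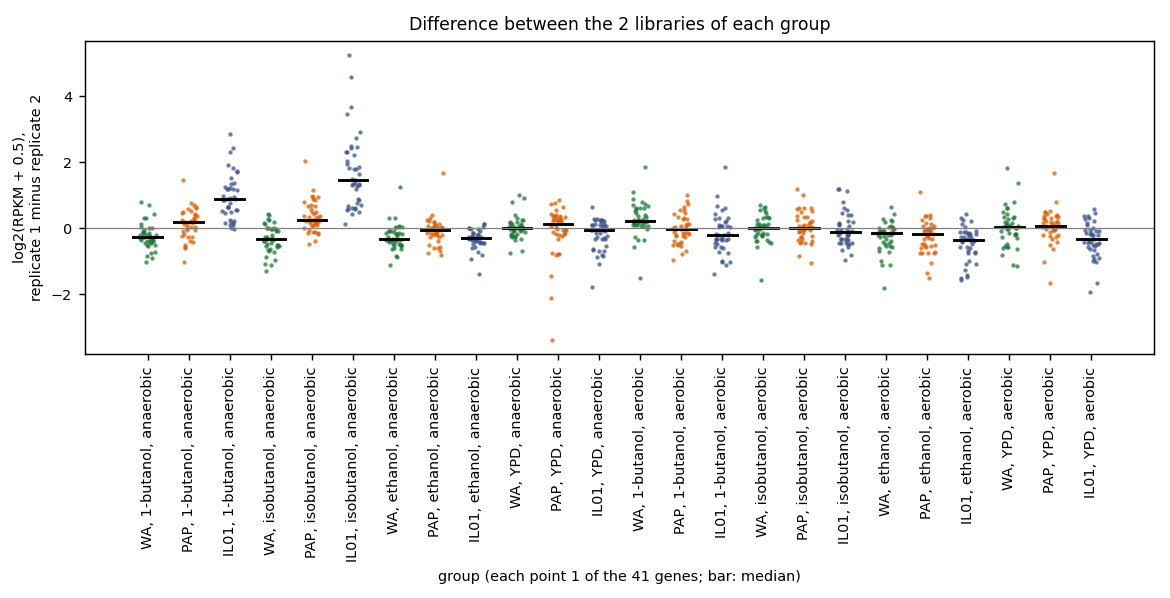
Difference of log2(RPKM + 0.5) between replicate 1 and replicate 2 of each of the 24 groups, anaerobic groups first, where each point is 1 of the 41 genes, coloured by strain, and the bar is their median. The 2 IL01 groups with butanols without oxygen stand out, with medians of 1.45 in isobutanol and 0.88 in 1-butanol.

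The resting levels of the 41 genes in aerobic YPD spanned a wide range. HOR7, a small stress protein of unknown role, was the highest by its median (67.5, 348 and 421 RPKM as lowest, median and highest of 6 libraries), followed by PEP4, the vacuolar proteinase A (162, 209 and 243 RPKM). PNC1 (33.0, 46.5 and 162 RPKM), GRE3, an aldose reductase (31.0, 37.3 and 53.6 RPKM), and PBI2, an inhibitor of vacuolar proteinase B (17.5, 31.0 and 35.2 RPKM), came next, and their ranges overlapped. HOR7 and PEP4 overlapped as well, through the 2 PAP libraries, in which HOR7 was at 67.5 and 68.7 RPKM. At the other end, RGI2 was counted in 2 of the 6 libraries, with 1 read in each, and XBP1, a transcriptional repressor made under starvation, had a median of 0.12 RPKM. HSP12, often used as a reporter of Msn2/Msn4 activity, lay between 0.39 and 3.29 RPKM.

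Growth without oxygen raised most of the genes before any alcohol was added. In YPD, 23 of the 38 tested were higher without oxygen than with it and 1 was lower. Of the 5630 genes tested, 17.5% were higher and 8.49% lower. The median change was 1.51, against 0.36 over all genes. With no filter on low levels, the same counts of 23 and 1 were obtained of all 41. Oxygen and the culture vessel cannot be told apart in this design, and the aerobic and anaerobic cultures share no batch that the labels name.

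TMA10, which binds ribosomes and is related to a stabilizer of the mitochondrial ATPase inhibitor, had the largest change. It had 233, 550 and 1014 RPKM (lowest, median, highest) in anaerobic YPD, against 1.85, 5.39 and 12.6 RPKM in aerobic YPD. Every anaerobic library was far above every aerobic one, a change of 6.91 ± 0.37 (SE; adjusted p = 1.214e-07). TFS1, an inhibitor of the vacuolar carboxypeptidase Y, had 161, 254 and 604 RPKM without oxygen, against 11.1, 11.5 and 12.2 RPKM with it. Its aerobic values were the tightest of the named genes and its anaerobic values lay all above them, a change of 4.57 ± 0.17 (adjusted p = 8.979e-09). YGP1 had 19.5, 149 and 380 RPKM, against 2.74, 11.9 and 12.5 RPKM. Again the groups did not overlap, and its change was 3.50 ± 0.27 (adjusted p = 2.52e-06). APE1, the vacuolar aminopeptidase I, had 54.5, 74.1 and 104 RPKM, against 4.17, 8.08 and 18.7 RPKM, a change of 3.14 ± 0.28 (adjusted p = 7.349e-06). RGI2, a gene induced in respiring cells, had 0.24, 6.14 and 13.4 RPKM without oxygen, while 4 of its 6 aerobic libraries had no read. It was called higher (adjusted p = 8.099e-06), and no fold is given because the aerobic level rests on single reads.

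HOR7 went the other way. It had 1.62, 30.1 and 54.4 RPKM without oxygen, against 67.5, 348 and 421 RPKM with it, a change of -3.84 ± 0.34 (adjusted p = 6.601e-06). No anaerobic library reached the lowest aerobic one. Its paralog DDR2, with 3 STREs in its window where HOR7 has 2, was low in both, with 0, 1.71 and 12.9 RPKM without oxygen (at most 26 reads), against 0, 0.55 and 1.95 RPKM with it (at most 3 reads).

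By role, all 5 vacuolar proteolysis genes (PEP4, PRB1, APE1, PBI2 and TFS1) were higher without oxygen in YPD, as were all 3 genes of the GABA shunt, GAD1, UGA1 and UGA2, which feed glutamate carbon to succinate, and all 5 genes grouped under mitochondria, ribosome and energy (TMA10, OM45, FMP16, RGI1 and RGI2). Of the 5 redox genes only GRE3 was called. PRX1, a mitochondrial thiol peroxidase, had 15.5, 18.1 and 40.1 RPKM without oxygen, against 21.9, 24.9 and 35.3 RPKM with it, and CTT1, the cytosolic catalase, had 2.47, 2.83 and 5.67 RPKM, against 2.62, 3.35 and 4.35 RPKM. The anaerobic and aerobic ranges of both overlapped.

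**Figure D2:**
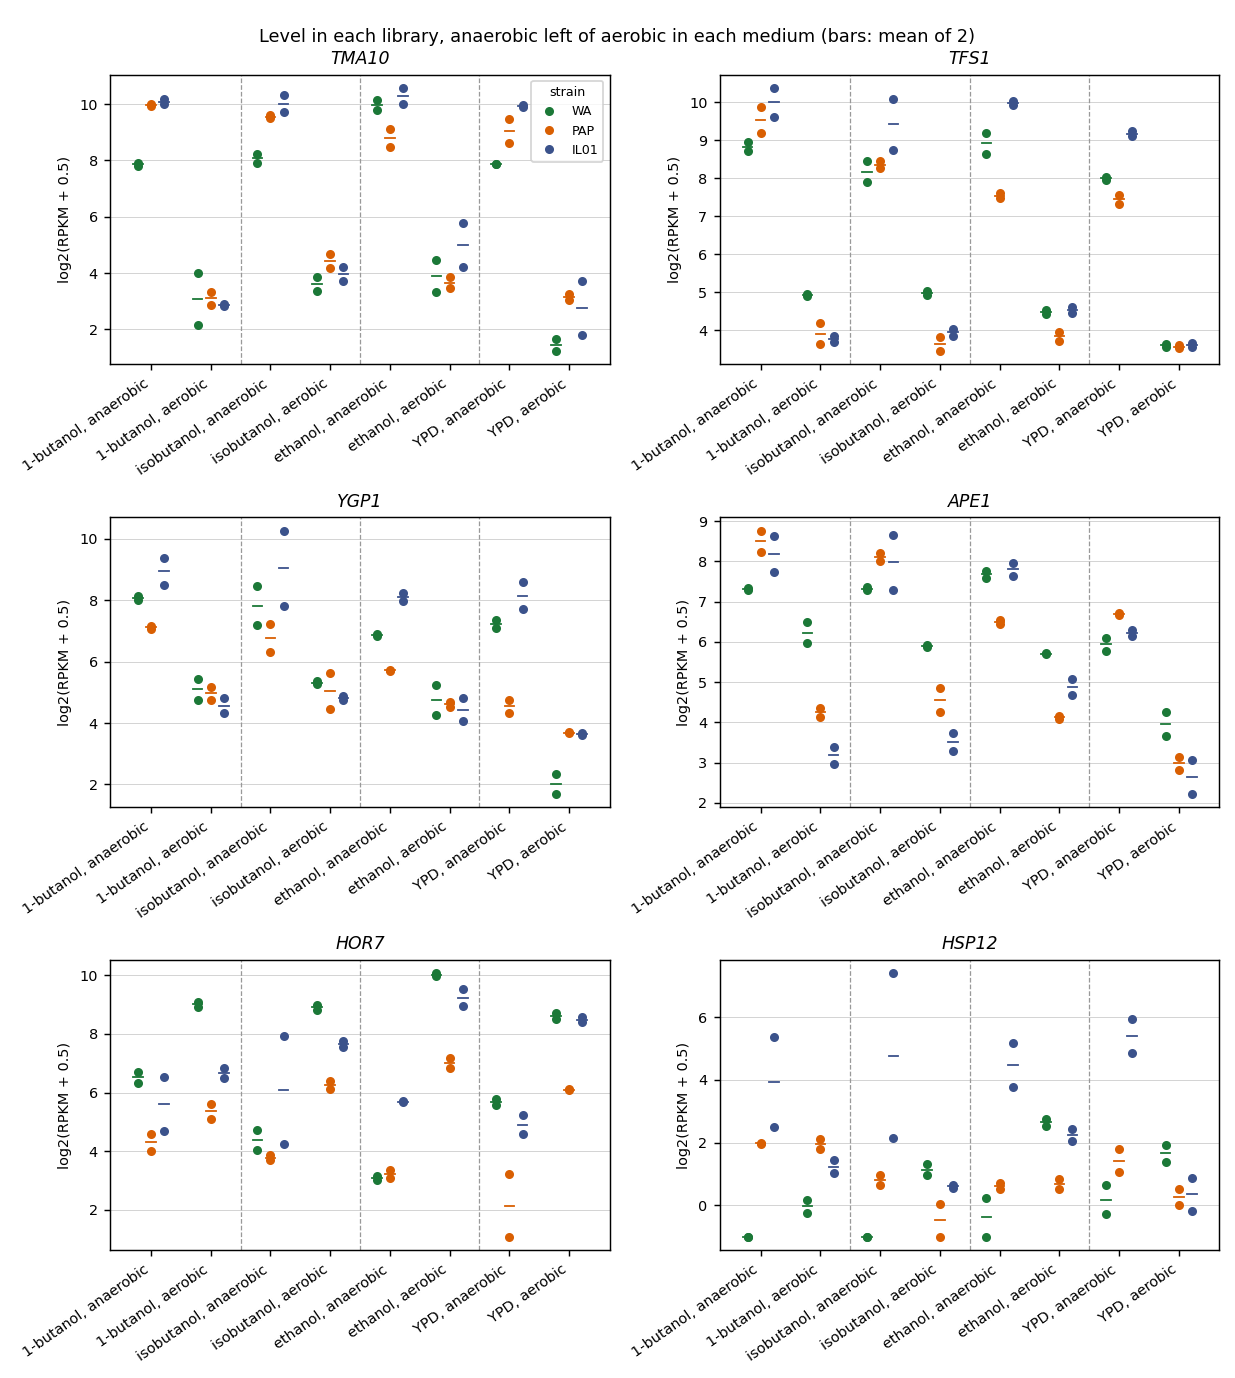
Level of TMA10, TFS1, YGP1, APE1, HOR7 and HSP12 as log2(RPKM + 0.5) in each library, anaerobic beside aerobic within each medium, with strains in colours and a bar at the mean of the 2 replicates. In YPD, TMA10 lay between 233 and 1014 RPKM without oxygen and between 1.85 and 12.6 RPKM with it, and HOR7 between 1.62 and 54.4 RPKM without oxygen and between 67.5 and 421 RPKM with it.

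In the alcohols too, most of the genes were higher without oxygen than with it. In 1-butanol, 34 of 39 tested genes were higher without oxygen and 1 lower (28.8% and 19.2% of all genes tested), with a median of 2.63, against 0.19 over all genes. In isobutanol the counts were 30 and 1 of 41 (24.4% and 13.8%), with a median of 2.18, against 0.24. The 1-butanol total of 35 was 33 without IL01 1-butanol anaerobic replicate 1 and 35 without replicate 2, and the isobutanol total of 31 was 28 without IL01 isobutanol anaerobic replicate 1 and 36 without replicate 2. In ethanol, PAP and IL01 alone gave 27 and 2 of 37 (20.3% and 22.1%), with a median of 1.85, against 0.01, and there the oxygen condition and the ethanol dose cannot be told apart. The ethanol count of 29 was 18 without PAP ethanol anaerobic replicate 1. XBP1, called in both butanols, and RGI2, called in each medium, were under 1 RPKM in all 24 aerobic libraries. They passed the filter only through their anaerobic libraries, so their calls are no independent support. Other called members were low with oxygen too. DDR48 and MOH1, called in each medium, were each under 1 RPKM in 16 of the 24 aerobic libraries, and DDR2 in 17. PHM7 and NQM1, also called in each medium, were under 1 RPKM in 8 and 11. DDR48, MOH1 and PHM7 did not pass the filter in the aerobic comparisons of alcohols with YPD, so the same limit holds for them. TMA10 and TFS1 led in each medium. In 1-butanol TMA10 had 223, 994 and 1165 RPKM without oxygen, against 3.98, 6.89 and 15.5 RPKM with it, and in isobutanol 242, 753 and 1270 RPKM, against 9.67, 15.8 and 24.8 RPKM. The same anaerobic to aerobic change of TMA10 was 6.08 ± 0.26, 5.36 ± 0.23 and 5.22 ± 0.35 in 1-butanol, isobutanol and ethanol, and that of TFS1 was 5.37 ± 0.21, 4.69 ± 0.28 and 4.72 ± 0.10. GAD1, the glutamate decarboxylase that opens the GABA shunt, had 68.4, 105 and 197 RPKM in anaerobic 1-butanol, against 2.27, 4.16 and 20.8 RPKM in aerobic 1-butanol, a change of 4.36 ± 0.23 (adjusted p = 7.702e-17). HOR7 was lower in each, with changes of -1.28 in 1-butanol, -2.31 in isobutanol and -3.66 ± 0.20 in ethanol. DDR2 was called in the other direction in 1-butanol, with 1.44, 2.28 and 47.2 RPKM without oxygen, against 0, 0.24 and 1.30 RPKM with it. In ethanol HSP31, which detoxifies methylglyoxal, was lower as well, at -1.49.

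**Figure D3:**
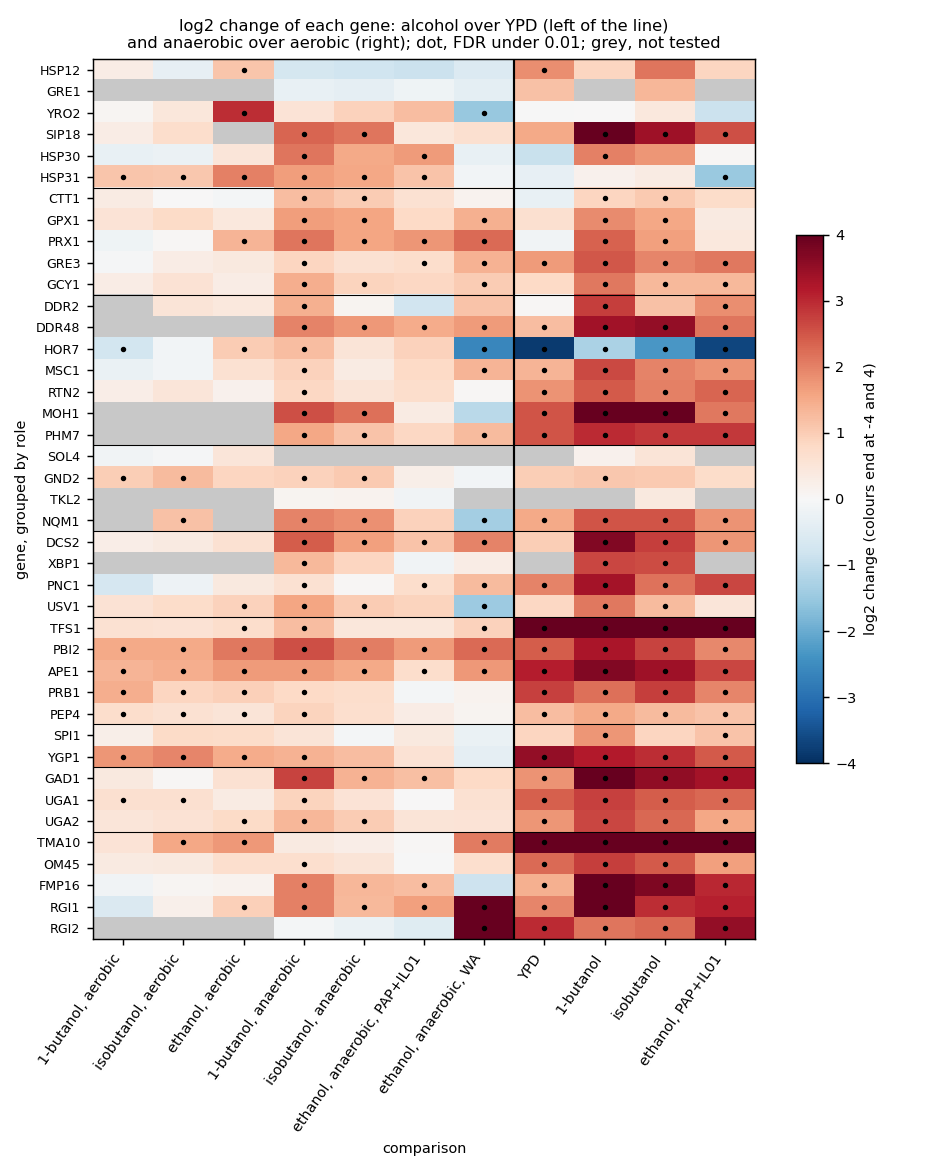
Log2 change of each of the 41 genes (down the page, grouped by role) for each alcohol over YPD, left of the line, and for anaerobic over aerobic cultures, right of it, with colours ending at -4 and 4, a dot for an adjusted p under 0.01 and grey where a gene was not tested. The vacuolar proteolysis and energy genes were called higher without oxygen in each medium (5 of 5 in both groups), and HOR7 was called lower in each. Among the energy genes, RGI2 was under 1 RPKM in all 24 aerobic libraries.

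With oxygen, the alcohols changed a minority of the genes. In 1-butanol 8 of the 32 tested were higher than in YPD and 1 lower, where 8.42% and 2.45% of all genes tested were, and the median was 0.31, against 0.21 over all genes. In isobutanol 10 of 34 were higher and none lower (8.15% and 2.41% of all genes), with a median of 0.55, against 0.17. In ethanol 15 of 32 were higher and none lower (5.77% and 1.39% of all genes), with a median of 0.68, against 0.21. At an unadjusted p under 0.05 in limma, 0 members were lower in isobutanol and 0 in ethanol. With no filter the counts higher were 8, 9 and 17 of 41. The isobutanol count was 6 without PAP YPD replicate 1, without PAP YPD replicate 2 or without WA isobutanol replicate 2. The ethanol count was 8 or 9 without any 1 of PAP YPD replicate 2, WA ethanol replicates 1 and 2, PAP ethanol replicate 1, and IL01 ethanol replicates 1 and 2. The 3 comparisons share their YPD libraries.

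The vacuolar genes made up much of these counts: 4 of the 5 were higher in 1-butanol and in isobutanol, and 5 of 5 in ethanol. PBI2 had 46.8, 87.2 and 156 RPKM in 1-butanol, 57.9, 89.9 and 99.5 RPKM in isobutanol and 78.8, 131 and 189 RPKM in ethanol, against 17.5, 31.0 and 35.2 RPKM in YPD. In no alcohol did a library fall to the YPD range, and the changes were 1.53 ± 0.20, 1.51 ± 0.14 and 2.10 ± 0.14 (adjusted p = 0.00102, 8.79e-05 and 9.905e-06). APE1 rose by 1.36 ± 0.21, 1.46 ± 0.21 and 1.71 ± 0.19, with 7.30, 18.6 and 89.2 RPKM in 1-butanol, 9.24, 23.5 and 59.6 RPKM in isobutanol and 16.6, 29.2 and 52.4 RPKM in ethanol, against 4.17, 8.08 and 18.7 RPKM in YPD. PRB1, the vacuolar proteinase B, was named in 1-butanol, with 21.9, 77.7 and 157 RPKM, against 15.3, 23.0 and 49.0 RPKM in YPD. Its groups overlapped, while each of the 6 strain and replicate pairs was higher in 1-butanol, a change of 1.45 ± 0.12 (adjusted p = 6.828e-05).

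YGP1 had 19.5, 26.9 and 43.1 RPKM in 1-butanol, 21.6, 33.3 and 49.5 RPKM in isobutanol and 16.4, 23.9 and 37.5 RPKM in ethanol, against 2.74, 11.9 and 12.5 RPKM in YPD. All alcohol libraries lay above all YPD libraries, with changes of 1.76 ± 0.19, 1.95 ± 0.21 and 1.49 ± 0.18 (adjusted p = 0.0003127, 0.0002202 and 0.0006234). HSP31 was named in 1-butanol (1.12 ± 0.11, adjusted p = 0.0001747) and in ethanol, where it had 39.6, 58.2 and 82.7 RPKM, against 4.69, 17.7 and 31.2 RPKM in YPD. The ethanol and YPD ranges did not overlap, and the change was 2.02 ± 0.11 (adjusted p = 4.132e-06). Of the pentose phosphate isozymes, GND2, a second 6-phosphogluconate dehydrogenase, rose by 0.97 ± 0.17 in 1-butanol and 1.26 ± 0.20 in isobutanol, and NQM1, related to transaldolase, by 1.18 ± 0.16 in isobutanol. TMA10 rose by 1.54 ± 0.29 in isobutanol and 1.72 ± 0.32 in ethanol, where it had 9.55, 15.9 and 53.7 RPKM, against 1.85, 5.39 and 12.6 RPKM in YPD. These ethanol levels of TMA10 were below all of its anaerobic YPD levels.

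YRO2, a plasma membrane protein related to Hsp30, had the largest aerobic change, and it was in ethanol. It had 64.2 and 93.8 RPKM in WA with ethanol, against 2.37 and 3.5 RPKM in WA in YPD. In IL01 it had 5.47 and 12.1 RPKM, against 0.75 and 0.84 RPKM, and in PAP 1.17 and 1.48 RPKM, against 0.099 and 0.082 RPKM. Ethanol was above YPD within each strain, and the strains kept their order, WA highest and PAP lowest, in both media. The common change was 2.97 ± 0.18 (adjusted p = 6.908e-06). By strain it was 4.53 ± 0.32 in WA, 2.75 ± 0.32 in IL01 and 1.62 ± 0.32 in PAP. The PAP levels in YPD are of very few reads and lie below the 0.5 RPKM added before logs were taken. That addition understates the change most in PAP, so no order of PAP and IL01 is drawn from these changes. The test of a difference between strains did not call YRO2. HSP12 reached 0.92, 4.27 and 6.25 RPKM in ethanol, against 0.39, 1.12 and 3.29 RPKM in YPD, and was called higher in ethanol. Aerobic ethanol was also a medium in which HOR7 rose, to 113, 610 and 1066 RPKM, against 67.5, 348 and 421 RPKM in YPD.

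**Figure D4:**
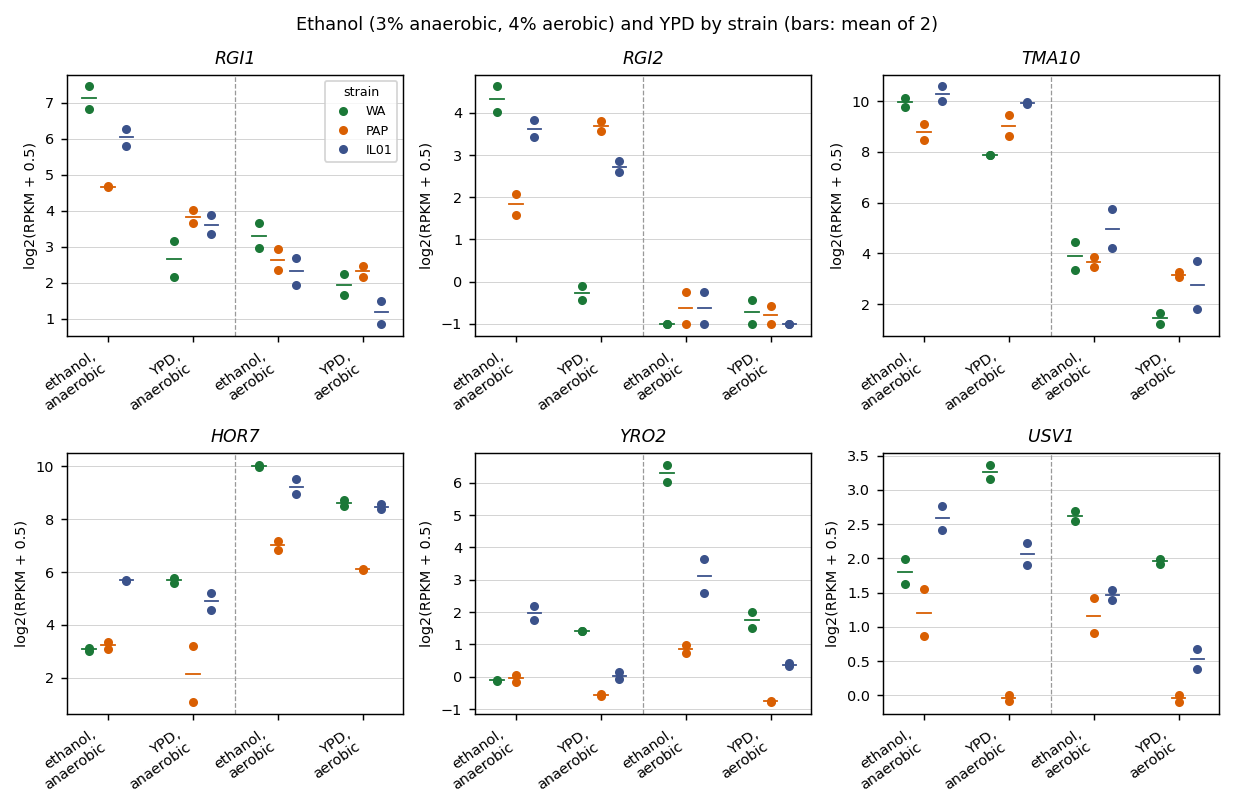
Level of RGI1, RGI2, TMA10, HOR7, YRO2 and USV1 as log2(RPKM + 0.5) in ethanol and YPD, anaerobic left of the dashed line and aerobic right of it, with each library a point in its strain's colour and a bar at the mean of the 2 replicates. YRO2 reached 64.2 and 93.8 RPKM in aerobic WA cells with ethanol, and RGI1 113 and 175 RPKM in anaerobic WA cells with ethanol.

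Without oxygen, 1-butanol changed most of the genes. It raised 33 of the 40 tested and lowered none, where 20.6% of the 5682 genes tested were higher and 7.13% lower, and the median change was 1.31, against 0.16 over all genes. At an unadjusted p under 0.05, 35 were higher and 1 lower. With no filter 31 of 41 were higher, and leaving out any 1 library gave 28 to 34. All 5 vacuolar genes, all 5 redox genes, all 3 GABA shunt genes, all 4 regulators (XBP1, USV1, DCS2 and PNC1) and all 7 small stress proteins of other or unknown role were higher. Within single strains 26 were called in PAP, 19 in IL01 and 11 in WA, each higher than YPD, where 16.3%, 5.72% and 2.73% of all genes were. The median changes were 1.6, 1.2 and 0.86 in PAP, IL01 and WA, against 0.41, 0.07 and -0.01 over all genes. The IL01 count was 11 without IL01 1-butanol replicate 1 and 24 without replicate 2. The PAP count includes PAP YPD replicate 2 and the WA count WA 1-butanol replicate 1. These are the 2 libraries with a low share of reads in genes (49.9% and 55.3%). Their part in the order of the strains was not tested.

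GAD1 led, with 68.4, 105 and 197 RPKM in 1-butanol, against 9.48, 19.2 and 24.6 RPKM in anaerobic YPD. Its groups were well apart, with a change of 2.70 ± 0.17 (adjusted p = 6.135e-16). PBI2 had 414, 903 and 1073 RPKM, against 80.7, 127 and 223 RPKM, a change of 2.58 ± 0.17 (adjusted p = 1.068e-15), and WA was the lowest strain in both media. MOH1, a gene of unknown role needed in resting cells, had 14.5, 26.7 and 73.4 RPKM, against 2.81, 4.83 and 6.43 RPKM, also without overlap (2.58 ± 0.22). DCS2, which regulates an mRNA decapping enzyme, had 11.3, 22.3 and 88.6 RPKM, against 1.93, 3.10 and 10.9 RPKM. The lowest 1-butanol library of DCS2 was just above the highest YPD library, and the change was 2.44 ± 0.21. SIP18, a hydrophilic protein of dehydration tolerance, had 7.78, 13.7 and 54.3 RPKM, against 0.41, 3.02 and 6.91 RPKM (2.32 ± 0.24), and HSP30, which lowers the activity of the plasma membrane proton pump, had 4.46, 7.47 and 14.5 RPKM, against 0.20, 1.58 and 3.53 RPKM (2.16 ± 0.25). Both were higher in all 6 strain and replicate pairs.

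The other roles were called in the same medium at varied levels. Of the redox genes, CTT1 had 4.50, 8.79 and 12.2 RPKM in anaerobic 1-butanol, against 2.47, 2.83 and 5.67 RPKM in anaerobic YPD. GPX1 had 5.29, 10.9 and 37.4 RPKM, against 1.56, 3.26 and 7.50 RPKM, and GCY1, an aldo-keto reductase, had 15.6, 24.1 and 89.2 RPKM, against 7.36, 9.56 and 16.3 RPKM. The ranges of all 3 overlapped a little, and IL01 replicate 1 held the highest GPX1 and GCY1 values. In the GABA shunt UGA2, succinate semialdehyde dehydrogenase, did not overlap its YPD range (39.2, 53.7 and 80.0 RPKM, against 15.2, 23.2 and 29.6 RPKM), and UGA1, the GABA transaminase, did (81.3, 147 and 227 RPKM, against 48.8, 63.7 and 118 RPKM). PEP4 had 672, 838 and 1415 RPKM, against 303, 527 and 643 RPKM, and no 1-butanol library was as low as the highest YPD library. The tested members not called were HSP12, GRE1, YRO2, TKL2, SPI1, TMA10 and RGI2. Of these TMA10 was not low, with 223 to 1536 RPKM over all anaerobic libraries. HSP12 was under 1 RPKM in 8 of the 24 anaerobic libraries, YRO2 in 14 and RGI2 in 6. GRE1, a hydrophilic desiccation protein, had 0.35, 1.76 and 1.83 RPKM, against 1.21, 1.92 and 2.36 RPKM, and TKL2, a second transketolase, had 0.18, 0.93 and 3.34 RPKM, against 0.17, 0.69 and 2.34 RPKM. SOL4, a second 6-phosphogluconolactonase, did not pass the filter (0.26, 0.83 and 3.36 RPKM, against 0.14, 0.36 and 1.32 RPKM). SPI1, a cell wall protein, lay between 8.03 and 33.7 RPKM, against 8.27 to 15.5 RPKM in YPD.

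The highest 1-butanol value of DCS2 and HSP30 came from IL01 replicate 1, the library that stood above its replicate (for DCS2 88.6 RPKM, with 26.7 RPKM in replicate 2). Without that library 33 genes were called higher and 1 lower, and without replicate 2 in its place 34 were higher.

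Isobutanol without oxygen raised 19 of 40 and lowered none (11.5% of the 5694 genes tested were higher and 2.65% lower), with a median of 0.96, against 0.10 over all genes. At an unadjusted p under 0.05, 29 were higher and 0 lower, and with no filter 17 of 41 were called. MOH1 had 7.27, 18.8 and 135 RPKM, against 2.81, 4.83 and 6.43 RPKM in YPD (2.20 ± 0.36, adjusted p = 0.0005461). SIP18 had 6.31, 10.8 and 59.5 RPKM, against 0.41, 3.02 and 6.91 RPKM (2.15 ± 0.28), and PBI2 had 184, 604 and 1109 RPKM, against 80.7, 127 and 223 RPKM (2.03 ± 0.15, adjusted p = 6.738e-07). MOH1 did not overlap YPD, and the other 2 did, through WA in the case of PBI2. NQM1 changed by 1.83 ± 0.24, DDR48, a protein induced by DNA damage, by 1.72 ± 0.24 and DCS2 by 1.66 ± 0.29.

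For each of MOH1, SIP18 and DCS2 the highest isobutanol library was IL01 replicate 1. The library that was left out mattered for the count: without IL01 isobutanol replicate 1 it was 24 (22 higher and 2 lower), and without IL01 isobutanol replicate 2 it was 33, all higher. With a replicate effect for each strain in place of 1 for all strains, 30 were called.

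**Figure D5:**
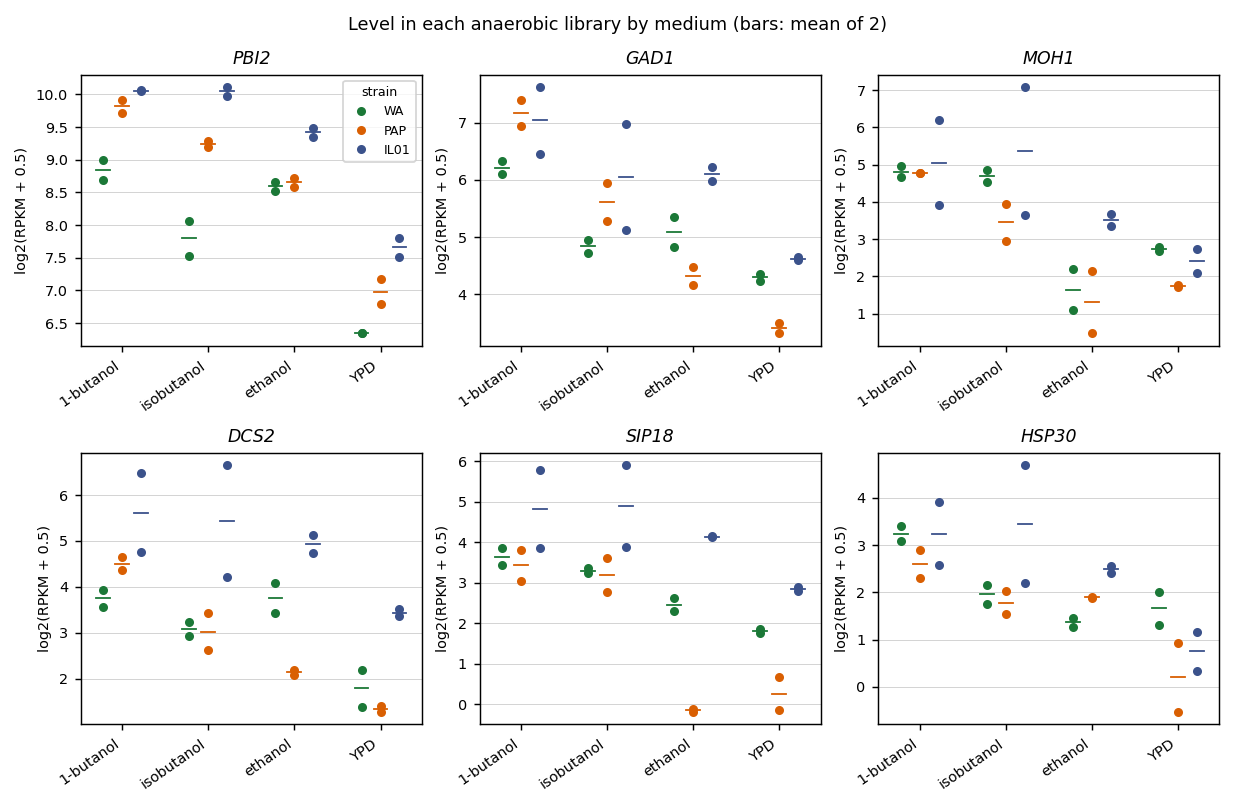
Level of PBI2, GAD1, MOH1, DCS2, SIP18 and HSP30 as log2(RPKM + 0.5) in each anaerobic library, by medium, with strains in colours and a bar at the mean of the 2 replicates. PBI2 lay between 414 and 1073 RPKM in 1-butanol and between 80.7 and 223 RPKM in YPD, and for MOH1, DCS2, SIP18 and HSP30 the 2 IL01 isobutanol libraries are widely split.

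Ethanol without oxygen was tested in PAP and IL01, and WA was kept apart. In the 2 strains 12 of 40 were higher and none lower (3.23% of the 5628 genes tested were higher and 0.853% lower), with a median of 0.70, against 0.03, and at an unadjusted p under 0.05 26 were higher and 1 lower. With no filter 6 of 41 were called. This count rested on few libraries. It was 27 without PAP YPD replicate 1 and 22 without PAP YPD replicate 2, and 3 to 5 without PAP ethanol replicate 1 (3), PAP ethanol replicate 2 (5), IL01 YPD replicate 1 (5) or IL01 YPD replicate 2 (4).

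PRX1 had 154 and 154 RPKM in IL01 with ethanol, against 40.1 and 37.4 RPKM in IL01 in YPD, and 49.3 and 43.2 RPKM in PAP, against 15.5 and 15.8 RPKM. The 4 ethanol libraries lay above the 4 YPD libraries, with a change of 1.75 ± 0.15 (adjusted p = 2.702e-05). PBI2 had 653 and 719 RPKM in IL01 with ethanol, against 223 and 182 RPKM, and 382 and 423 RPKM in PAP, against 144 and 110 RPKM (1.72 ± 0.14, adjusted p = 1.619e-05). HSP30 (1.71 ± 0.29), RGI1, a gene induced in respiring cells (1.63 ± 0.20), DDR48 (1.47 ± 0.27) and FMP16, a mitochondrial protein of unknown role (1.22 ± 0.24), followed, each higher in all 4 pairs. HSP12 was not called, with 13.1 and 35.2 RPKM in IL01 with ethanol, against 28.2 and 60.3 RPKM in YPD.

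In WA, 15 of 39 were higher in anaerobic ethanol and 4 lower, where 5.56% and 4.80% of the 5650 genes tested were, with a median of 0.61, against 0.04. With no filter 14 of 41 were higher and 3 lower. The total of 19 was 11 without WA YPD replicate 1, 9 without WA YPD replicate 2, 11 without WA ethanol replicate 1 and 7 without WA ethanol replicate 2. With all anaerobic libraries in the fit, 12 were higher and none lower.

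RGI1 had 113 and 175 RPKM in WA with ethanol, against 8.39 and 3.96 RPKM in WA in YPD, a change of 4.48 ± 0.32 (adjusted p = 6.425e-09). These were the highest RGI1 levels of any library, where PAP and IL01 with ethanol reached 24.7 to 76.2 RPKM. RGI2 had 15.8 and 24.2 RPKM in WA with ethanol, against 0.24 and 0.43 RPKM in YPD. It was called higher (adjusted p = 1.566e-09), and since the YPD levels are of few reads no fold is given. HOR7, with 2 STREs, had 7.53 and 8.32 RPKM, against 54.4 and 47.5 RPKM, a change of -2.61 ± 0.39 (adjusted p = 9.453e-05). PRX1 (75.7 and 106 RPKM, against 17.9 and 18.4 RPKM), PBI2 (368 and 406 RPKM, against 80.8 and 80.7 RPKM) and TMA10 (876 and 1129 RPKM, against 233 and 234 RPKM) rose by 2.27 ± 0.21, 2.25 ± 0.18 and 2.09 ± 0.26. The other genes called lower were USV1, a zinc finger regulator (2.59 and 3.46 RPKM, against 8.42 and 9.82 RPKM), YRO2 (0.44 and 0.41 RPKM, against 2.14 and 2.17 RPKM) and NQM1 (0.56 and 1.39 RPKM, against 3.49 and 2.88 RPKM), which were taken up here because they complete that count of 4. YRO2 was thus lower in WA with ethanol without oxygen and higher in WA with ethanol with oxygen. The joint test over the 3 strains, with WA included, called 9 members for a strain difference in the anaerobic ethanol response, and WA against the other strains was not tested.

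The difference between the anaerobic and the aerobic change was tested directly. For 1-butanol, 15 of 39 had a larger change without oxygen and none a smaller one (4.61% and 2.57% of all genes tested), and at an unadjusted p under 0.05 26 were larger and 2 smaller. PRX1 was higher in 1-butanol without oxygen (48.6, 105 and 210 RPKM, against 15.5, 18.1 and 40.1 RPKM in YPD) and near its YPD level with oxygen (18.5, 23.8 and 29.6 RPKM, against 21.9, 24.9 and 35.3 RPKM), a difference of 2.32 ± 0.24 (adjusted p = 2.591e-06). The same difference was 2.30 ± 0.25 for GAD1, 2.59 ± 0.35 for RGI1 and 1.95 ± 0.28 for DDR48. DDR48 was under 1 RPKM in 16 of the 24 aerobic libraries and did not pass the filter in aerobic libraries alone. The count of 15 was 9 without WA 1-butanol aerobic replicate 2, 8 without WA 1-butanol anaerobic replicate 2 and 9 without PAP 1-butanol anaerobic replicate 2. For isobutanol only PRX1 was called (1.53 ± 0.31, adjusted p = 0.004971), where 2.02% of all genes had a larger and 1.44% a smaller change without oxygen, with 14 larger and 1 smaller at an unadjusted p under 0.05, and the count was 9 without IL01 isobutanol anaerobic replicate 2 and 0 to 2 without any other library. For ethanol in PAP and IL01, at different doses, only HSP31 was called, with a smaller change without oxygen (-1.20 ± 0.23, adjusted p = 0.008739), where 0.708% of all genes had a larger and 1.27% a smaller one, and at an unadjusted p under 0.05 5 members had a larger and 9 a smaller one. The count was 9 without PAP YPD anaerobic replicate 2, 2 without PAP YPD anaerobic replicate 1 and 0 in the 14 other fits that left out 1 library.

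Few members were called for a difference between strains in how they changed. With 2 libraries per group, a member that was not called is not shown to respond alike in the strains. The joint test over the 3 strains called 1 member for aerobic 1-butanol (0.269% of all genes), 2 for anaerobic 1-butanol (2.38%), and none for isobutanol with oxygen (0.125%) or without (0.316%) or for aerobic ethanol (0% of all genes), where 3 were called without WA YPD aerobic replicate 2. Between PAP and IL01 no member was called for anaerobic ethanol (0.320%), against 10 without PAP YPD replicate 1, 9 without PAP YPD replicate 2 and 2 without IL01 ethanol replicate 1. For 1-butanol, 12 of the 32 tested members with oxygen and 16 of the 40 without had an unadjusted p under 0.05 in that test. At an unadjusted p under 0.05 the counts of 0 were 12 and 4 for isobutanol with and without oxygen, 10 for aerobic ethanol and 13 for anaerobic ethanol. Without 1 of the IL01 anaerobic isobutanol libraries, 7 (replicate 1) or 16 (replicate 2) members were called there.

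The gene called for aerobic 1-butanol was HOR7 (adjusted p = 0.009698). It had 89.6 and 114 RPKM in IL01 with 1-butanol, against 334 and 379 RPKM in YPD, and 33.7 and 48.4 RPKM in PAP, against 67.5 and 68.7 RPKM. In WA it had 548 and 478 RPKM, against 361 and 421 RPKM. The change was -1.81 ± 0.17 in IL01, -0.75 ± 0.17 in PAP and 0.39 ± 0.17 in WA. No member was called without any 1 of the PAP and IL01 libraries or of the WA 1-butanol libraries, and 2 were without WA YPD replicate 2. For anaerobic 1-butanol, YGP1 and FMP16 were called (adjusted p = 0.008857 each). YGP1 had 134 and 142 RPKM in PAP with 1-butanol, against 26.6 and 19.5 RPKM (2.57 ± 0.31), 664 and 359 RPKM in IL01, against 209 and 380 RPKM (0.79 ± 0.31), and 257 and 280 RPKM in WA, against 137 and 161 RPKM (0.85 ± 0.31). PAP had the lowest YGP1 in both media. FMP16 changed by 3.01 ± 0.35 in IL01, where replicate 1 had 141 RPKM and replicate 2 49.5 RPKM, by 2.23 ± 0.35 in PAP and by 0.77 ± 0.35 in WA. Without the replicate effect in the model 0 members were called for anaerobic 1-butanol and 2 for PAP against IL01 in ethanol. Without IL01 1-butanol anaerobic replicate 1 the count of 2 was 9, without IL01 1-butanol anaerobic replicate 2 it was 6, and without IL01 YPD anaerobic replicate 1 it was 5. It was 1 without either PAP 1-butanol anaerobic library and 0 without WA YPD anaerobic replicate 2, PAP YPD anaerobic replicates 1 and 2, or either WA 1-butanol anaerobic library.

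Levels of these genes in YPD also differed between the strains, each set against the mean of the 3. Reads of all strains were mapped on the reference strain S288c, and the effect of the strains' own sequences on the counts was not tested. With oxygen, WA had 3 of 38 higher and 1 lower (2.08% and 0.977% of all genes). PAP had 0 higher and 2 lower (1.24% and 1.39% of all genes), and an unadjusted p under 0.05 was reached by 7 in each direction. IL01 had 2 higher and 1 lower (0.906% and 1.55%). YRO2 was highest in WA (2.37 and 3.5 RPKM) and lowest in PAP (0.099 and 0.082 RPKM). HSP31 was at 27.6 and 31.2 RPKM in WA and lowest in IL01 (4.69 and 5.44 RPKM), with PAP between them. PAP had the lowest HOR7 (67.5 and 68.7 RPKM, against 334 to 421 RPKM in the other 2 strains). IL01 was highest in GPX1, a glutathione peroxidase (6.90 and 8.06 RPKM, against 0.70 to 2.15 RPKM), and in PNC1 (102 and 162 RPKM, against 33.0 to 51.1 RPKM). These calls covered 7 members. The number was 11 without WA YPD aerobic replicate 2, 3 without PAP YPD aerobic replicate 1, 1 without PAP YPD aerobic replicate 2, 4 without IL01 YPD aerobic replicate 2 and 4 without either WA YPD anaerobic library, which enters the same fit.

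Without oxygen IL01 had the higher levels and PAP the lower. IL01 had 8 genes above the mean of the 3 strains and none below (2.97% and 1.07% of all genes), PAP 1 above and 7 below (1.03% and 4.48%), and WA 3 above and 2 below (3.11% and 1.47%). At an unadjusted p under 0.05, 23 were above and 2 below in IL01, and 2 above and 19 below in PAP. HSP12 had 28.2 and 60.3 RPKM in IL01 (73 and 216 reads), against 2.96 and 1.59 RPKM in PAP and 1.06 and 0.32 RPKM in WA (3 and 1 reads), a difference of 3.05 for IL01. In WA with either butanol without oxygen, HSP12 had no read in any of the 4 libraries, which allows up to 3 reads in each. YGP1 was at 209 and 380 RPKM in IL01, 137 and 161 RPKM in WA and 26.6 and 19.5 RPKM in PAP. NQM1, USV1 and HOR7 were likewise lowest in PAP, with 0.39 and 0.26 RPKM, 0.50 and 0.45 RPKM, and 1.62 and 8.75 RPKM. PNC1 was at 557 and 534 RPKM in IL01, against 124 to 188 RPKM in the other strains. RGI2 was the gene above in PAP (11.4 and 13.4 RPKM, with 6.70 and 5.58 RPKM in IL01 and 0.24 and 0.43 RPKM in WA). In all 13 members were called. The number was 25 without either WA YPD aerobic library, and 7 or 8 without WA YPD anaerobic replicate 2 or any 1 of the PAP and IL01 YPD anaerobic libraries, and it was 25 when the anaerobic libraries were fitted alone.

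Genes with and without an STRE were both among those called. In anaerobic 1-butanol 16 of the 18 tested genes with at least 2 STREs were higher, 13 of the 14 tested with 1 and 4 of the 8 with none (20.6% of all genes). In aerobic ethanol the counts were 5 of 14, 7 of 13 and 3 of 5 tested (5.77% of all genes), and for anaerobic against aerobic YPD 8 of 17, 11 of 14 and 4 of 7 (17.5%). In anaerobic isobutanol they were 10 of 18, 8 of 14 and 1 of 8 (11.5%). For anaerobic against aerobic 1-butanol they were 16 of 18, 13 of 15 and 5 of 6 (28.8%). These are counts with no test, and with few genes in each class. PBI2 and TMA10 have 1 STRE each in the windows printed above, and YGP1 and YRO2 have none in that window.

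Transcripts of the regulators themselves were also counted. Of 26 genes that act on or beside Msn2 and Msn4, all tested, 9 were higher and none lower in anaerobic 1-butanol (20.6% of all genes tested were higher), 4 higher in anaerobic isobutanol (11.5%), 1 in anaerobic ethanol in PAP and IL01 (3.23%) and 2 in WA (5.56%). With oxygen 3 were higher in 1-butanol (8.42%), 0 in isobutanol (8.15%) and 2 in ethanol (5.77%). Without oxygen against with it, 7 were higher in YPD (17.5%), 12 in 1-butanol with 1 lower (28.8% and 19.2%), 11 in isobutanol with 1 lower (24.4% and 13.8%) and 8 in ethanol with 2 lower (20.3% and 22.1%). Several of these counts of few genes lie near the share of all genes. MSN4 had 10.96, 20.9 and 63.6 RPKM in anaerobic YPD, against 3.02, 5.99 and 12.1 RPKM in aerobic YPD, a change of 2.08. In anaerobic 1-butanol MSN4 reached 35.8, 119 and 163 RPKM, a change of 1.77 from anaerobic YPD, and in aerobic ethanol it rose by 1.48. MSN2 was not called in any of these comparisons and had 30.1, 44.8 and 62.6 RPKM in anaerobic YPD, against 28.5, 35.7 and 39.3 RPKM in aerobic YPD. After MSN4, RIM15 and YAK1, kinases that promote the resting state, had the largest changes in anaerobic 1-butanol (1.57 and 1.21). Genes of the opposing protein kinase A pathway rose there too, among them TPK2, a catalytic subunit (0.95), and CYR1, the adenylate cyclase (0.95), both taken up after their values were seen.

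Of 15 paralogs of members, 6 of 13 tested were higher in anaerobic 1-butanol and none lower (20.6% and 7.13% of all genes tested), and 5 were higher and 2 lower of 14 without oxygen in YPD (17.5% and 8.49%). STF2, the paralog of TMA10, was higher by 2.06 in anaerobic 1-butanol and by 3.60 without oxygen in YPD. SED1, the paralog of the cell wall protein SPI1, was higher by 1.86 in anaerobic 1-butanol and by 5.56 in WA with anaerobic ethanol, while SPI1 itself was not called in either. GPX2, the paralog of GPX1, was lower without oxygen in YPD, with a change of -3.95. In the S288c reference no 30-base run was shared between a member and its paralog except 3 of 1006 in YRO2 and MRH1. Reads of paralogs should thus be separable in that sequence, and the strains' own sequences were not compared. DDR48 shares its position with a dubious reading frame on the same strand, so its counts are uncertain.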

How the data were processed

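RNA was sequenced from 48 yeast cultures, with strand-specific libraries made after ribosomal RNA had been depleted from total RNA. The authors used Trimmomatic to trim reads, BWA to map them on the reference strain S288c (R64) and HTSeq to count them by gene. The values they deposited are log2 RPKM, and a gene that had no read is listed at 0. Whether counting used strand is not given in the sources used here. The deposited log2 values were turned back to RPKM, with listed zeros taken as 0 RPKM. Reads came out whole (within 0.01) for 5733 of 6713 genes, all 41 members among them, and gave 7480286 to 13938540 reads per library. At the lowest depth 1 RPKM in a gene of 1 kilobase is 7.48 reads. Tests used the spread between replicates, and intervals for counting error were not computed. Levels of a few reads that are given without a test are therefore uncertain.

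Changes were fitted to log2(RPKM + 0.5) with limma 3.58.1 in R 4.3.3 (intensity trend), for genes with a mean of at least 1 RPKM, called at a Benjamini-Hochberg adjusted p under 0.01 over all genes tested. Fold changes on that scale understate those of low genes. Models held strain, medium and replicate as a block, since the study collected paired replicates on different days. Deviations of same-numbered libraries correlated weakly (median r 0.0915 with oxygen and 0.0769 without, over 66 pairs of groups each). Alcohols were set against YPD of the same oxygen condition, anaerobic against aerobic libraries of the same medium, and each strain against the mean of the 3 in YPD (12 libraries of both oxygen conditions). Anaerobic ethanol in PAP and IL01 was fitted without WA. Its values in WA came from a fit of the 12 anaerobic YPD and ethanol libraries of all strains, so their errors share the spread of the 3 strains. Up to 6 members per comparison with the largest change past the threshold and 1 sign in every strain and replicate pair were named with their statistics, and up to 4 with the smallest adjusted p per interaction. Other members are described by their levels. The members and lists were chosen with earlier results of these data known. Promoters came from RefSeq (R64). The fits were tested on simulated data. Alternatives were no block, a block per strain, log2(RPKM + 1), the deposited zeros as 1 RPKM, no filter, quantile normalization, all libraries of an oxygen condition, WA included, and each library left out. The values of 1 regulator and the sequence of 1 promoter are not reported here.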

Additional observations from a re-analysis of the deposited data

Results flagged for a closer look

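In 1-butanol, members changed differently with and without oxygen, by the test of the difference itself. The anaerobic minus the aerobic log2 change was 2.32 for PRX1, 2.30 for GAD1, 2.59 for RGI1 and 1.95 for DDR48, the 4 members with the smallest adjusted p. DDR48 was under 1 RPKM in 16 of the 24 aerobic libraries. The same difference in isobutanol was 1.53 for PRX1. In ethanol, given at 3% without oxygen and at 4% with it, the difference was -1.20 for HSP31.

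A difference between strains in the response to 1-butanol was called for 3 members. The adjusted p for HOR7 with oxygen was 0.009698, and without oxygen it was 0.008857 for YGP1 and 0.008857 for FMP16. The HOR7 call rested on most libraries singly, and for FMP16 replicate 1 of IL01 with 1-butanol (141 RPKM) stood above replicate 2 (49.5 RPKM). The part of these libraries in the results was not tested further.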

How the results depend on the processing

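Of 133 counts of called members recomputed under another setting, 110 stayed within 1.5 times the count reported, and of 704 values for named members 659 kept their direction and call, 45 lost the call and 0 reversed. Of 202 counts within single strains 43 moved by more. With 1 library left out, 97 of 280 counts of members and 109 of 320 within single strains moved by over 1.5 times, and 165 of 1222 values for named members lost the call. Without the replicate block no member was called for strain differences in anaerobic 1-butanol (0), 2 were for PAP against IL01 in ethanol, 2 for isobutanol by oxygen and 0 for ethanol by oxygen, and the block changed no other count by over 1.5 times. A block per strain gave 30 for anaerobic isobutanol. Quantile normalization gave 8 for aerobic ethanol, 10 for anaerobic isobutanol, 0 for strain differences in anaerobic 1-butanol, 2 for isobutanol by oxygen and 5 for ethanol by oxygen. No filter gave 0 for strain differences in 1-butanol with oxygen and 0 without, 6 for anaerobic ethanol in PAP and IL01 and 0 for ethanol by oxygen. With log2(RPKM + 1), 2 were called for isobutanol by oxygen. All libraries of the oxygen condition gave 16 for aerobic isobutanol, 5 for anaerobic ethanol in PAP and IL01 and 12 in WA. With WA included the anaerobic ethanol count was 19, the strain difference 9 and ethanol by oxygen 7. Fitting only the YPD libraries of that oxygen condition gave 1 member differing between strains with oxygen and 25 without. The causes were not tested.

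Leaving out each library in turn gave, with oxygen, 6 to 12 for 1-butanol, 6 to 13 for isobutanol and 8 to 19 for ethanol, and without oxygen 28 to 34, 13 to 33, 3 to 27 (PAP and IL01) and 7 to 21 (WA). Anaerobic against aerobic counts were 17 to 30 in YPD, 32 to 35 in 1-butanol, 22 to 36 in isobutanol and 18 to 34 in ethanol, and differences of response by oxygen 8 to 20, 0 to 9 and 0 to 9. Strain differences in response were 0 to 2, 0 to 0 and 0 to 3 in aerobic 1-butanol, isobutanol and ethanol, and 0 to 9, 0 to 16 and 0 to 10 without oxygen. Strain differences in YPD were 1 to 11 with oxygen and 7 to 25 without. With 2 libraries per group, and genes such as RGI2, DDR2 and HSP12 at a few reads in many libraries, low levels limit what could be detected.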
